A study of Mus musculus with 26 samples.

Results

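Rhox6 and Rhox9 are homeobox genes of the Rhox cluster on the mouse X chromosome. Their RNA was followed here in mouse embryonic stem cells (mESCs), in 15 RNA-seq libraries that fall into 7 groups. The genes were chosen by name, as the Rhox genes of embryonic and placental tissue, after values of all 15 libraries had been seen, among them the high Rhox6 of Mtgr1-/- cells. Of the 3 genes so named, 2 have a row among the 24015 genes of the expression files, and Rhox5 was not analysed here. Their levels and differences are therefore given as a description without a test, and tests are given for other genes only.

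The libraries come from a study of Prdm14, a transcription factor of naive pluripotency and germ cell fate, and of Mtgr1, its ETO family co-repressor partner, which the gene Cbfa2t2 encodes. All lines derive from Stella:GFP mESCs, which carry a fluorescent reporter of the germ cell gene Stella, and were maintained in 2i+LIF, a serum-free medium with inhibitors of MEK and GSK3beta. The groups were wt cells in serum+LIF (1 library), wt cells in 2i+LIF (2), Mtgr1-/- cells (3), the FH-Mtgr1 rescue (3), Prdm14-/- cells (2), the FH-Prdm14 rescue (2) and the E294K rescue (2). All but the wt 2i+LIF group had been kept for 5 days in serum+LIF without feeder cells. The knockout lines are single clones made by CRISPR/Cas9, A3, C1 and C3 for Mtgr1 and F10 and G6 for Prdm14. The rescue lines are the same clones with a transgene for FLAG-HA (FH) tagged protein, which in E294K carries a substitution in Prdm14 that disrupts the binding of Mtgr1. The wt serum+LIF group is 1 library, so that no comparison with it has replicates on the wt side.

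The Rhox genes encode homeodomain transcription factors that are active in reproductive tissues, germ cells and placenta. Rhox6 (also known as Psx1) and Rhox9 (Psx2) are known from placenta, from trophoblast cells and from germ cells of the embryo. In the cells of the embryo proper, genes of this cluster are silenced around implantation with DNA methylation of their promoters, and are kept active in extraembryonic lineages.

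In the NCBIM37 assembly (mm9) with the GENCODE annotation, Rhox6 lies on chromosome X at chrX:35180087-35183034 on the plus strand. Rhox9 lies at chrX:35252274-35255044 on the minus strand, 69239 bases away. The genes are close copies. Their coding sequences are 684 bases long each and identical at 620 positions (90.6%). Both sequences are shown from coding base 401 to 600, counted from 1 at the A of the start codon, as a stretch in which the copies can be told apart, with capitals at the 29 positions where they differ:

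Rhox6: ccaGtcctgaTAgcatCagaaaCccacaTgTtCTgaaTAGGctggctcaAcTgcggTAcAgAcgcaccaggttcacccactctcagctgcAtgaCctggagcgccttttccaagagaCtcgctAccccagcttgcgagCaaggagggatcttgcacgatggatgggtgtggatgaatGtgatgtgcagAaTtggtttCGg

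Rhox9: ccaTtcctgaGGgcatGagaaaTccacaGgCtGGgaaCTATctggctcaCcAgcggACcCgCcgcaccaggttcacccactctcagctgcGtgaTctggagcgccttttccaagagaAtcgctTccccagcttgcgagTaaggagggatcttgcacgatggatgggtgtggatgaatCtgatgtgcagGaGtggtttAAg

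The longest run without a difference is 161 bases, from coding base 167 to 327, and a read that falls inside it matches both genes equally well:

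Rhox6 and Rhox9 shared run: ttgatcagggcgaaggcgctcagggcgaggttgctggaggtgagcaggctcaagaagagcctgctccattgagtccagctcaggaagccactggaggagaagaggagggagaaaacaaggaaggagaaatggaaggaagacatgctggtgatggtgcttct

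Of the positions where a read of 51 bases can start on the longest Rhox6 transcript, 26.5% give a read that also matches Rhox9, and 27.3% of the Rhox9 positions match Rhox6. For reads of 76 bases the shares are 21.8% and 22.6%. No transcript of another gene shared such a read. The study used both read lengths, and which library had which was not analysed here. The effect of the shared stretches on the split of reads between the copies was not tested, and the sum of both genes does not depend on it unless reads with several matches were dropped.

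Expression is in RPKM, the reads of a gene scaled to its length and to the depth of the library. Each RPKM value could be turned back into a whole number of reads, and the libraries held between 10668572 and 21218414 reads on genes (median 13793727). The levels of pluripotency genes mark all libraries as mESCs, with a summed level of Pou5f1, Sox2, Nanog and 5 more markers between 1773 and 5290 RPKM, while 8 fibroblast markers of feeder cells summed to between 3.98 and 30.2 RPKM. Prdm14 was at 79.8 to 116 RPKM in the FH-Prdm14 and E294K libraries and at 1.96 and 3.60 RPKM in Prdm14-/- cells, against 2.77 RPKM in wt serum+LIF cells. Cbfa2t2 was at 18.0 to 19.9 RPKM in Mtgr1-/- and at 25.5 to 28.0 RPKM in FH-Mtgr1 libraries. RNA of a gene cut within an exon may persist, so these levels do not check the knockouts.

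The clone names of 2 pairs of libraries go against Y-linked genes. Eif2s3y was at 0.0274 RPKM in the library labelled Mtgr1-/- A3 and at 17.5 RPKM in that labelled FH-Mtgr1 A3, but at 18.3 RPKM in Mtgr1-/- C1 and at 0.0800 RPKM in FH-Mtgr1 C1. The groups do not change if these names are exchanged. Values within clones A3 and C1 are given by label, and comparisons of Mtgr1-/- with FH-Mtgr1 are also given with clone C3 alone, which leaves 1 library on each side. Eif2s3y was also low in Prdm14-/- G6 (0.732 RPKM) beside 3.08 RPKM in the FH-Prdm14 library of that clone.

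Rhox6 was lowest in the wt serum+LIF library, at 0.510 RPKM from 7 reads, with a Poisson 95% interval of 0.205 to 1.05 RPKM. In the wt 2i+LIF libraries it was at 1.95 RPKM (18 reads) and 0.632 RPKM (7 reads). In Mtgr1-/- cells it was at 66.5 RPKM in clone A3, 75.3 RPKM in clone C1 and 44.2 RPKM in clone C3, from 1187, 1178 and 433 reads. Thus the lowest Mtgr1-/- library lay above each of the other 12 libraries. In the rescue libraries labelled FH-Mtgr1 A3, C1 and C3, Rhox6 was at 2.26, 4.74 and 6.63 RPKM (27, 87 and 73 reads). These values were below every Mtgr1-/- library and above every wt library. In the Prdm14 lines Rhox6 was at 8.19 RPKM in Prdm14-/- F10 and 21.4 RPKM in Prdm14-/- G6 (91 and 215 reads), at 8.87 and 9.99 RPKM in FH-Prdm14 F10 and G6 (111 reads each), and at 9.01 and 10.1 RPKM in E294K F10 and G6 (128 and 139 reads). Only Prdm14-/- G6 stood out among these 6 libraries. The intervals cover counting error only, and PCR copies in libraries without molecular identifiers are not independent reads.

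**Figure D1:**
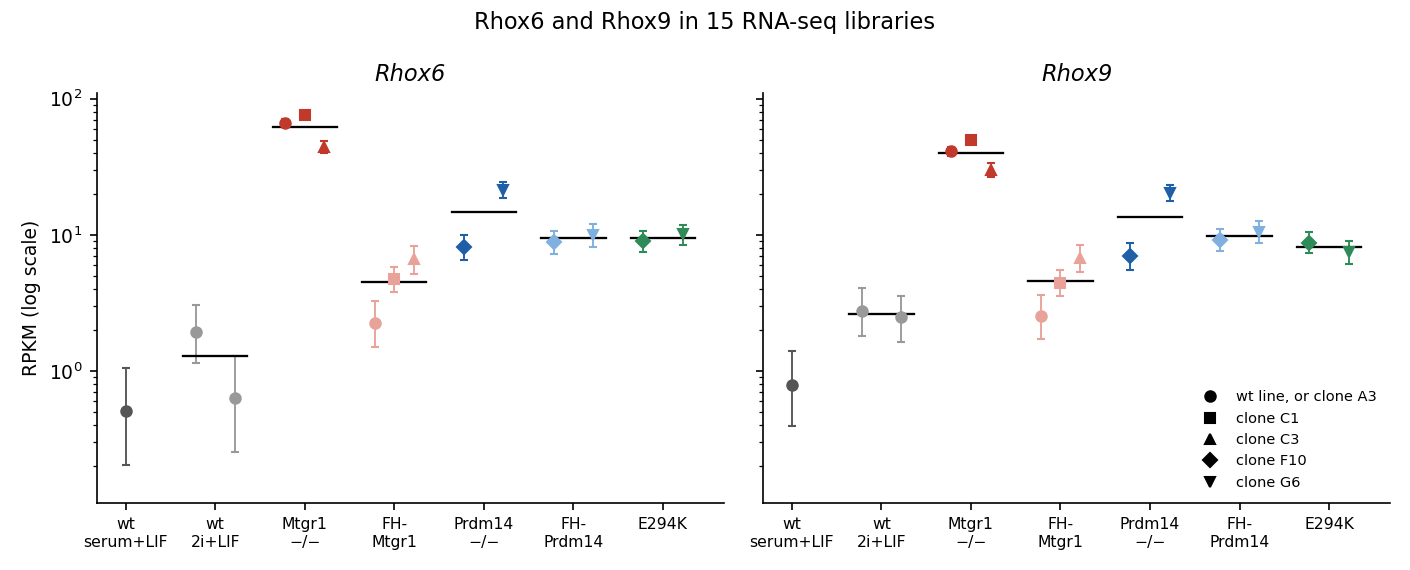
RPKM of Rhox6 (left) and Rhox9 (right) on a log axis in the 15 libraries by group. Points are libraries, their shape gives the labelled clone, bars are Poisson 95% intervals of the reads, and lines are group means. For both genes the 3 Mtgr1-/- libraries lie above all others and the wt serum+LIF library lies lowest.

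Rhox9 showed nearly the same order of libraries. It was at 0.786 RPKM (11 reads) in the wt serum+LIF library and at 2.76 and 2.48 RPKM (26 and 28 reads) in the 2i+LIF libraries. In Mtgr1-/- A3, C1 and C3 it was at 41.2, 49.6 and 30.1 RPKM, from 749, 790 and 301 reads. As for Rhox6, clone C1 was highest and clone C3 lowest, and all 3 lay above the other 12 libraries. FH-Mtgr1 A3, C1 and C3 were at 2.55, 4.44 and 6.77 RPKM (31, 83 and 76 reads), so that the lowest of them fell between the 2i+LIF libraries. Rhox9 was at 6.98 and 20.3 RPKM in Prdm14-/- F10 and G6 (79 and 208 reads), at 9.25 and 10.5 RPKM in FH-Prdm14 F10 and G6 (118 and 119 reads), and at 8.77 and 7.48 RPKM in E294K F10 and G6 (127 and 105 reads). Again Prdm14-/- G6 alone lay above the rest of the Prdm14 lines, and Prdm14-/- F10 lay lowest among them.

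Over the 15 libraries Rhox6 ranged 148-fold and Rhox9 63.1-fold between their lowest and highest level. At its lowest Rhox6 was above 44.4% and at its highest above 95.7% of all genes of the same library, and Rhox9 above 47.6% and 93.1%. The levels of the copies followed each other, with a Pearson r of 0.984 between their log2 values over the 15 libraries. This is a description, as the genes share reads and the libraries share groups. In bulk RNA, a higher level in all cells and a larger share of cells with the RNA cannot be told apart.

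Ordered by mean level of Rhox6, the groups were Mtgr1-/- (62.0 RPKM ± 16.1 SD, n = 3), Prdm14-/- (14.8 ± 9.36, n = 2), E294K (9.55 ± 0.766, n = 2), FH-Prdm14 (9.43 ± 0.788, n = 2), FH-Mtgr1 (4.54 ± 2.19, n = 3), wt 2i+LIF (1.29 ± 0.932, n = 2) and wt serum+LIF (0.510, n = 1). The libraries of Prdm14-/-, E294K and FH-Prdm14 overlapped, and at the other steps in this order the libraries of neighbouring groups did not. The share of all genes without overlap was not analysed for any of these steps. Between wt 2i+LIF and wt serum+LIF the nearest libraries were at 0.632 and 0.510 RPKM, with 7 reads each. Between FH-Mtgr1 and wt 2i+LIF they were at 2.26 and 1.95 RPKM. At both steps the Poisson intervals of the nearest libraries overlapped. For Rhox9 the means were 40.3 ± 9.75 RPKM in Mtgr1-/-, 13.7 ± 9.45 in Prdm14-/-, 9.88 ± 0.884 in FH-Prdm14, 8.12 ± 0.912 in E294K, 4.58 ± 2.11 in FH-Mtgr1 and 2.62 ± 0.201 in wt 2i+LIF cells. The Rhox9 libraries of Prdm14-/- and FH-Prdm14 overlapped, as did those of FH-Mtgr1 and wt 2i+LIF.

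Mtgr1-/- libraries were set against FH-Mtgr1 libraries, which asks how both genes differ once Mtgr1 is put back. The mean level in Mtgr1-/- was 13.6 times that in FH-Mtgr1 for Rhox6 and 8.79 times for Rhox9, and no libraries overlapped. By limma, 52.3% of all tested genes differed here at an adjusted p under 0.05, and the share without overlap was not analysed. On the log2(RPKM + 0.5) scale, which is the scale of all differences below and understates those of low genes, the difference was 3.70 (SE 0.40) for Rhox6 and 3.06 (SE 0.36) for Rhox9. By label, the ratio of Rhox6 was 29.4 in clone A3, 15.9 in clone C1 and 6.66 in clone C3, and that of Rhox9 was 16.2, 11.2 and 4.45. Clone C3 had both the lowest knockout and the highest rescue level of each gene, and with this clone alone the differences were 2.65 for Rhox6 and 2.07 for Rhox9.

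FH-Mtgr1 libraries remained above the wt serum+LIF library, by 2.22 (SE 0.57) for Rhox6 and 1.89 (SE 0.51) for Rhox9, a mean level 8.91 and 5.83 times as high. Mtgr1-/- cells differed from that library by 5.92 (SE 0.57) for Rhox6, the largest difference of 13477 tested genes, and by 4.96 (SE 0.51) for Rhox9, the fifth in that order. These are the values with which Rhox6 was first singled out. The wt level rests on 7 and 11 reads, so the ratios of 122 and 51.3 in mean RPKM are uncertain by counting error alone.

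In the Prdm14 lines knockout and rescue were not separated for either gene. Prdm14-/- minus FH-Prdm14 was 0.48 (SE 0.49) for Rhox6 and 0.27 (SE 0.44) for Rhox9, with overlapping libraries. Clone F10 and clone G6 went opposite ways, as the ratio of knockout to rescue was 0.923 and 2.15 for Rhox6 and 0.754 and 1.94 for Rhox9. Without Prdm14-/- G6 the differences were -0.19 for Rhox6 and -0.47 for Rhox9. All 6 libraries of the Prdm14 lines lay above the wt serum+LIF library, Prdm14-/- by 3.77 (SE 0.61) for Rhox6 and 3.28 (SE 0.54) for Rhox9, and FH-Prdm14 by 3.30 (SE 0.61) and 3.01 (SE 0.54).

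E294K and FH-Prdm14 lines, which differ in whether the transgenic Prdm14 binds Mtgr1, differed in Rhox6 by 0.02 (SE 0.49), with overlapping libraries. For Rhox9 it was -0.27 (SE 0.44), and the E294K libraries lay just below the FH-Prdm14 libraries. Standard errors of this size leave room for a difference in either direction. E294K minus Prdm14-/- was -0.46 (SE 0.49) for Rhox6 and -0.54 (SE 0.44) for Rhox9, and both turned positive, to 0.21 and 0.20, without Prdm14-/- G6.

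The knockouts were also set against each other. Mtgr1-/- libraries lay above Prdm14-/- libraries for both genes, by 2.14 (SE 0.45) for Rhox6 and 1.68 (SE 0.40) for Rhox9, a mean level 4.19 and 2.95 times as high. Leaving out a single library gave between 1.48 and 2.81 for Rhox6 and between 0.94 and 2.42 for Rhox9, both with the lowest value without Prdm14-/- F10 and the highest without Prdm14-/- G6. Between the wt groups, which differ in medium, the difference was smaller. The mean of wt 2i+LIF lay above the single wt serum+LIF library by 0.72 (SE 0.61) for Rhox6 and 1.28 (SE 0.54) for Rhox9. For Rhox6 this difference was 0.16 without the first and 1.28 without the second 2i+LIF library. An effect of the medium on both genes was not tested.

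**Figure D2:**
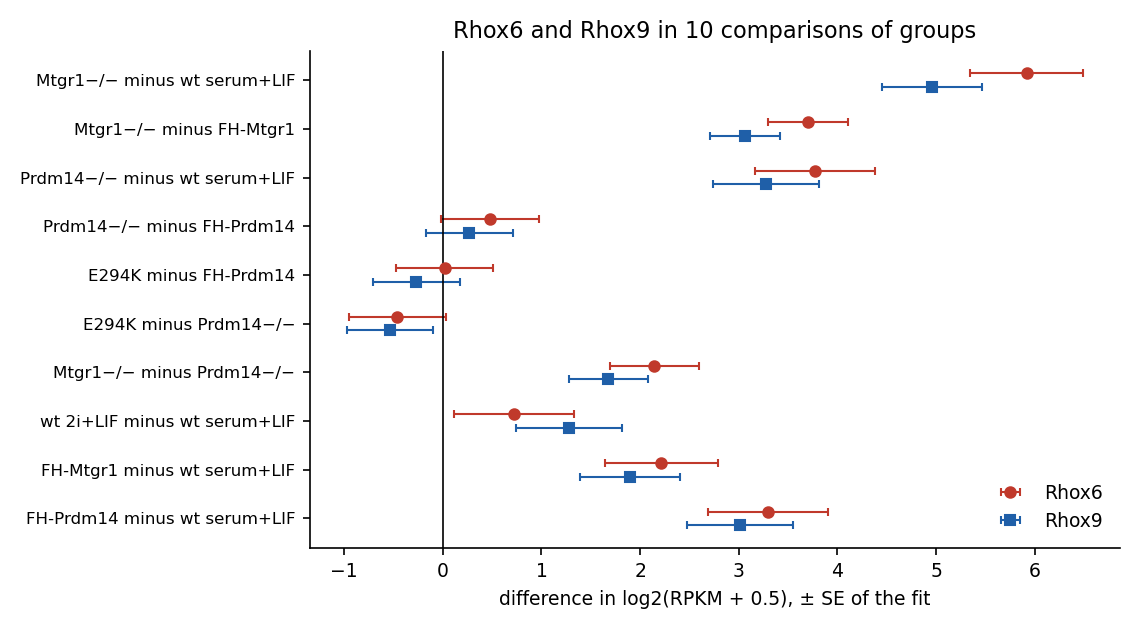
Difference of Rhox6 and Rhox9 in log2(RPKM + 0.5) between groups in 10 comparisons, with the SE of the fit as bars and 0 as a line. Mtgr1-/- minus wt serum+LIF is the largest for both genes, 5.92 and 4.96, and E294K minus FH-Prdm14 lies near 0. Comparisons that use the same group share its libraries.

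The balance between the copies varied between libraries. Rhox6 took 59.0% to 61.3% of the reads of both genes in the Mtgr1-/- libraries, with exact binomial 95% intervals that together span 55.3% to 63.5%. In the FH-Mtgr1 libraries it took 46.6% to 51.2%, in FH-Prdm14 48.3% and 48.5%, and in Prdm14-/- 53.5% and 50.8%. Rhox9 had the larger share in wt cells, where Rhox6 took 38.9% of 18 reads in serum+LIF and 40.9% and 20.0% of 44 and 35 reads in 2i+LIF. Per length, the ratio of Rhox6 to Rhox9 in RPKM was 1.53 ± 0.0755 (SD, n = 3) in Mtgr1-/- and 0.979 ± 0.0904 (n = 3) in FH-Mtgr1 libraries, with no overlap. E294K G6, at 1.35, was the highest of the other 12 libraries. The ratio is part of the values that were known when the genes were chosen and has no test.

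**Figure D3:**
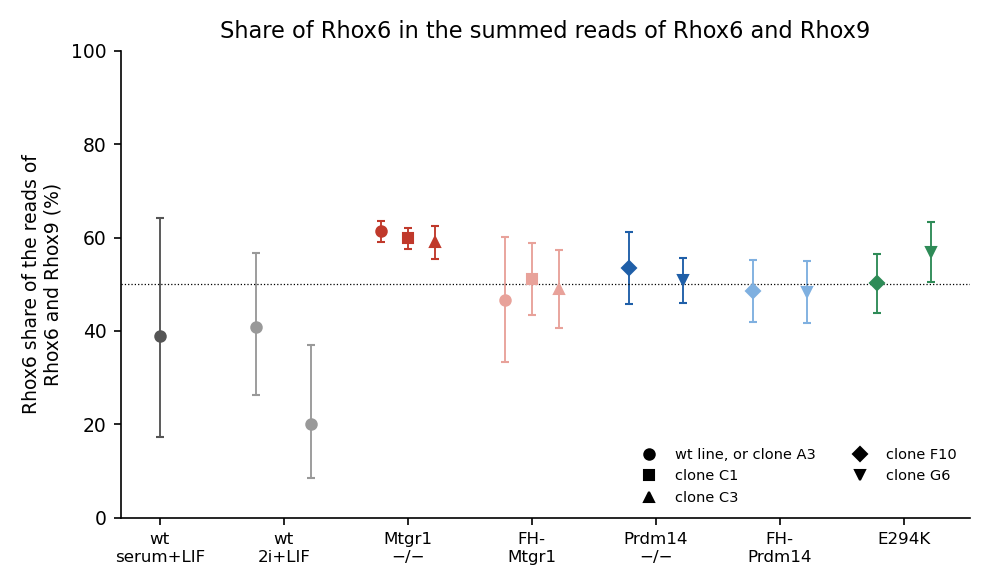
Share of Rhox6 in the summed reads of Rhox6 and Rhox9 in each library (percent), with exact binomial 95% intervals of the reads as bars, a dotted line at 50% and the labelled clone as the shape of the point. The Mtgr1-/- libraries lie near 60%, the FH-Mtgr1 and FH-Prdm14 libraries near 50% and the wt libraries lower, with wide intervals.

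The files hold 28 other genes of the Rhox family. Of these, 12 had no read in any library, 12 had at most 9 reads in a library, and 4, Rhox1, Rhox7, Rhox10 and Rhox13, reached 10 reads or more. The 21 genes of the Rhox2, Rhox3 and Rhox4 groups, which are near-identical copies whose reads the counting may have discarded, had 20 reads in all. Against 6663 reads of Rhox6 and Rhox9, the other 28 genes had 1123 reads. Rhox6 and Rhox9 made up 25.7% of all Rhox reads in the wt serum+LIF library and 95.9% to 96.7% in the Mtgr1-/- libraries.

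The filter of at least 1 RPKM in at least 2 libraries let through Rhox1, Rhox7 and Rhox13, and these were tested with limma over all 13477 genes that passed, with Benjamini-Hochberg adjustment and a threshold of 0.05. Mtgr1-/- minus FH-Mtgr1 called 52.3% of all genes, so that a call in it is common. Of the 3 genes 2 fell there, and none rose, also at an unadjusted p under 0.05. Prdm14-/- minus FH-Prdm14 called 25.2% of all genes.

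Rhox1, a gene of the testis at one end of the cluster, was at 0.165, 0.565 and 0.200 RPKM in Mtgr1-/- A3, C1 and C3 and at 1.32, 0.534 and 1.34 RPKM in the libraries labelled FH-Mtgr1 A3, C1 and C3. Mtgr1-/- C1 lay just above FH-Mtgr1 C1, and the other libraries of both groups did not overlap. It fell by 0.93 (SE 0.31, adjusted p = 0.0237), but with the parental clone as a block the adjusted p was 0.0551, and with clone C3 alone 0.0763. In Prdm14-/- F10 and G6 Rhox1 was at 0.442 and 0.293 RPKM, below 1.65 and 2.91 RPKM in FH-Prdm14. The difference was -1.65 (SE 0.38, adjusted p = 0.00763, and 0.0281 with the block). These levels rest on 2 to 9 reads in each knockout library, and leaving out single libraries took the adjusted p to at most 0.0861 in the Mtgr1 and 0.0835 in the Prdm14 lines.

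Rhox7, which adjoins Rhox6, passed the filter only through the FH-Prdm14 libraries, so that its difference from them had to be found and has no test. It was at 2.74 and 2.85 RPKM in FH-Prdm14 F10 and G6, and at 0.555 RPKM or less in every other library. In Mtgr1-/- A3, C1 and C3 it had 2, 2 and 0 reads, and in FH-Mtgr1 A3, C1 and C3 it had 6, 11 and 3 reads. Mtgr1-/- minus FH-Mtgr1, which does not use the FH-Prdm14 libraries, was -0.66 (SE 0.19, adjusted p = 0.0116), and with clone C3 alone the adjusted p was 0.216.

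Rhox13, a germ cell gene at the other end of the cluster, was at 2.09, 2.43 and 1.69 RPKM in Mtgr1-/- A3, C1 and C3 and at 3.41, 3.91 and 2.32 RPKM in FH-Mtgr1. The difference of -0.52 (SE 0.23) had an adjusted p of 0.0769, and 0.0476 with the block. Prdm14-/- libraries, at 1.43 and 1.51 RPKM, lay below FH-Prdm14 libraries, at 2.70 and 3.72 RPKM (-0.90, SE 0.28, adjusted p = 0.0347), a call that was lost without any 1 of the 4 libraries, with adjusted p values of 0.0642 to 0.219. Rhox10, a gene of spermatogonia, was tested nowhere, and its highest level was 1.43 RPKM, in FH-Prdm14 G6.

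In the other comparisons calls of these 3 genes were few. Against the wt serum+LIF library, Mtgr1-/- cells had 1 call (37% of all genes were called), Rhox1 with a difference of -1.23 (SE 0.44, adjusted p = 0.0443). Prdm14-/- cells had 0 calls by limma (25.4% of all genes), and 1 of the 3 at an unadjusted p under 0.05. FH-Mtgr1 cells had 1 (2.74%), Rhox13 with 1.38 (SE 0.33, adjusted p = 0.0474), and FH-Prdm14 cells had 1 of Rhox1 and Rhox13 (12.5%), Rhox13 with 1.39 (SE 0.35, adjusted p = 0.0243), which was lost without either FH-Prdm14 library. The wt 2i+LIF cells had 0 (22.9%), and 1 at an unadjusted p under 0.05. Of Rhox1 and Rhox13, E294K minus FH-Prdm14 had 0 (19.5%), and 1 at an unadjusted p under 0.05. E294K minus Prdm14-/- had 0 (32.9%), with 1 at an unadjusted p under 0.05. Mtgr1-/- minus Prdm14-/- had 1 (35.4%), Rhox7 with -0.81 (SE 0.21, adjusted p = 0.0113, and 0.0731 without Prdm14-/- F10). The differences of Rhox13 and Rhox1 in these comparisons rest on the levels shown in the plot of the 3 genes.

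**Figure D4:**
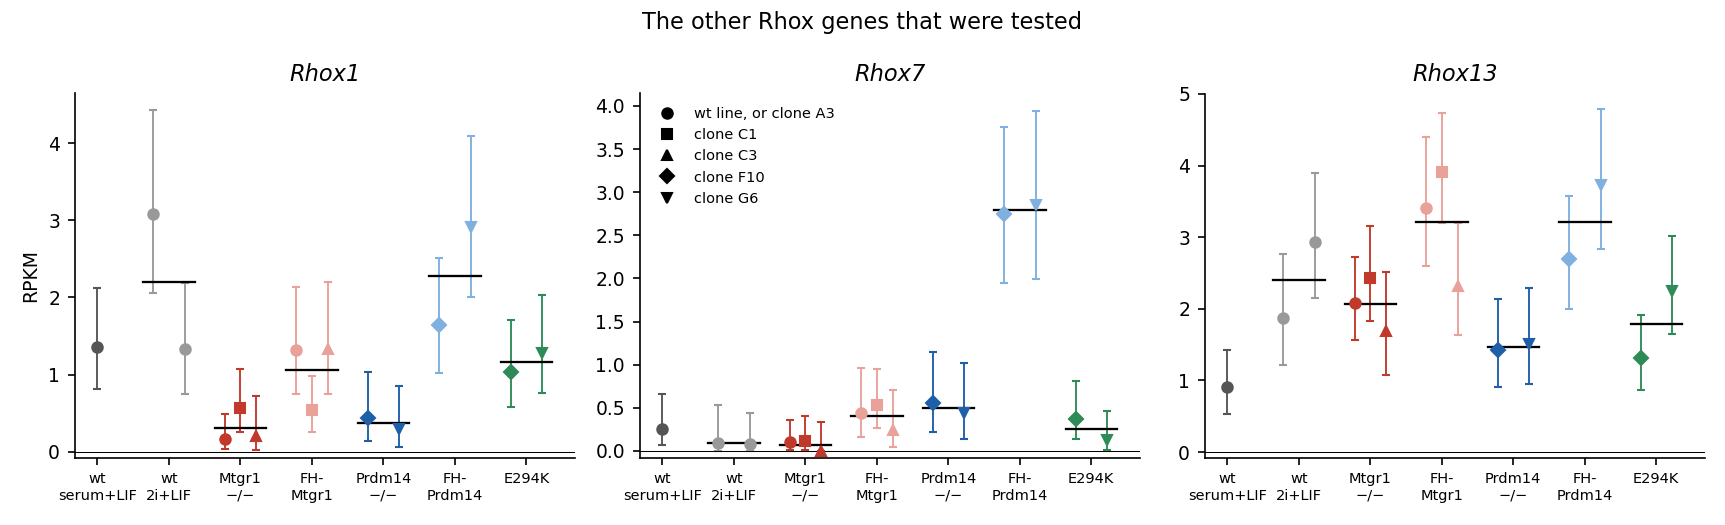
RPKM of Rhox1, Rhox7 and Rhox13 on linear axes in the 15 libraries by group, with Poisson 95% intervals of the reads as bars, group means as lines and the labelled clone as the shape of the point. All values lie below 4 RPKM, Rhox1 is low in both knockouts, and Rhox7 stands out in the FH-Prdm14 libraries.

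Genes beside the cluster were counted in the same way. Of the annotated X-linked genes within 1 Mb of the outermost Rhox genes, 20 were tested. In Mtgr1-/- minus FH-Mtgr1, 1 rose and 6 fell (35% called, beside 52.3% of all genes), with a median difference of -0.06 against -0.01 over all genes, and with clone C3 alone only 2 were called. Slc25a43, a mitochondrial carrier, rose by 0.75 (SE 0.20, adjusted p = 0.00805). Lamp2, a lysosomal membrane protein, fell by 2.11 (SE 0.26, adjusted p = 5.23e-05). In Prdm14-/- minus FH-Prdm14, 2 rose and 3 fell (25% called, at the 25.2% of all genes), and 1 fell without either FH-Prdm14 library. Of 438 X-linked genes tested, 130 rose and 98 fell in the Mtgr1 lines and 86 rose and 36 fell in the Prdm14 lines. The shares called in either direction, 52.1% and 27.9%, lie near those of all genes, but the directions differed in the Prdm14 lines. There more X-linked genes rose than fell, while 11.4% of all genes rose and 13.8% fell. The median difference was 0.09 against -0.09 over all genes in the Prdm14 lines, and 0.04 against -0.01 in the Mtgr1 lines.

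A list of 20 germline genes known to be silenced by promoter DNA methylation went the other way from Rhox6 and Rhox9. In Mtgr1-/- minus FH-Mtgr1, 14 of the 18 tested genes fell, beside 26.1% of all genes, and none rose, also at an unadjusted p under 0.05, with a median difference of -1.15. With clone C3 alone 12 fell. Dpep3, a testis dipeptidase, fell by 3.45 (SE 0.29, adjusted p = 4.58e-06), from a mean of 6.78 RPKM in FH-Mtgr1 to 0.151 RPKM in Mtgr1-/- libraries. Sycp3 and Hormad1, genes of the meiotic chromosome axis, fell by 3.10 (SE 0.28, adjusted p = 5.93e-06) and 2.80 (SE 0.22, adjusted p = 3.12e-06). In Prdm14-/- minus FH-Prdm14, 9 of 18 fell, beside 13.8% of all genes, with a median of -0.73 against -0.09 over all genes, and 5 fell without Prdm14-/- G6. Dazl, an RNA-binding protein of germ cells, fell there by 1.73 (SE 0.22, adjusted p = 0.000169).

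Among 13 enzymes of DNA methylation, its removal and H3K9 methylation, Dnmt3b, a de novo methyltransferase, rose most in both knockouts against their rescues. It rose by 1.39 (SE 0.28, adjusted p = 0.00139) in Mtgr1-/- minus FH-Mtgr1, from 99.5 to 258 RPKM in the mean, and by 2.38 (SE 0.35, adjusted p = 0.000446) in Prdm14-/- minus FH-Prdm14, from 19.7 to 106 RPKM. Tet2, an enzyme that oxidizes methylated cytosine, fell by 0.99 (SE 0.33, adjusted p = 0.0225) and by 1.46 (SE 0.40, adjusted p = 0.0190). In each comparison 5 of the 13 rose and 2 fell (53.8% called), beside 52.3% of all genes in the Mtgr1 lines, a share near it, and 25.2% in the Prdm14 lines, and with clone C3 alone 2 rose and 1 fell. The Prdm14 comparison had 3 calls without either FH-Prdm14 library and 4 without Prdm14-/- G6. Against the wt serum+LIF library, 1 of the 13 rose and 4 fell in Mtgr1-/- cells (38.5% called, beside 37% of all genes). In Prdm14-/- cells 0 rose and 5 fell (38.5%, beside 25.4%), and their mean Dnmt3b of 106 RPKM was below the wt level. Dnmt3b was at 245 to 279 RPKM in Mtgr1-/- libraries, at 198 and 182 RPKM in E294K F10 and G6, where Rhox6 was at 9.01 and 10.1 RPKM, and at 149.5 RPKM in the wt serum+LIF library, where Rhox6 was lowest. Over the 15 libraries the Pearson r of log2 values between Dnmt3b and Rhox6 was 0.576. DNA methylation itself was not measured, and the part of these enzymes in the Rhox6 and Rhox9 levels was not tested.

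Many placental genes were high in Mtgr1-/- libraries, where Rhox6 and Rhox9 were highest. In Mtgr1-/- minus FH-Mtgr1, 11 of 18 tested genes of a trophoblast and placenta list rose and 2 fell, beside 26.2% and 26.1% of all genes, with a median of 0.99, while 6 rose and 1 fell with clone C3 alone. Plac1, an X-linked placental surface protein, was at 19.0, 17.5 and 5.36 RPKM in Mtgr1-/- A3, C1 and C3. It was at 0.264 to 0.339 RPKM in FH-Mtgr1 libraries (3.995, SE 0.40). Plac1 is among the 11 that rose, but may have passed the filter only through libraries where it was high. Its difference is therefore given without a test. Krt7, a simple epithelial keratin, rose by 3.82 (SE 0.22, adjusted p = 5.74e-07) and Peg10, an imprinted gene needed for placenta formation, by 3.71 (SE 0.36, adjusted p = 1.08e-05). Tfpi and Syna, a coagulation inhibitor and a syncytin, fell by 0.65 (SE 0.24, adjusted p = 0.0357) and 0.50 (SE 0.17, adjusted p = 0.0302). The summed level of the 24 listed genes was 1084 to 1162 RPKM in Mtgr1-/- and 199 to 209 RPKM in FH-Mtgr1 libraries, most of it Peg10 with 753 to 848 RPKM in Mtgr1-/- libraries. The sum was 183 to 198 RPKM in FH-Prdm14 libraries and 252 RPKM in the wt serum+LIF library. Against that wt library, 3 of the 18 genes rose and 3 fell in FH-Prdm14 cells (33.3% called, beside 12.5% of all genes). In FH-Mtgr1 cells 0 were called (2.74% of all genes).

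Other regulators of the list rose as well. Hand1, a factor of trophoblast giant cells, rose by 3.63 (SE 0.38, adjusted p = 1.48e-05), to a mean of 34.8 RPKM in Mtgr1-/- libraries. Gata2 rose by 2.78 (SE 0.28, adjusted p = 1.37e-05) and Ascl2 by 1.52 (SE 0.20, adjusted p = 7.09e-05). Dlx3 rose by 1.23 (SE 0.29, adjusted p = 0.00371) and Gata3 by 1.097 (SE 0.29, adjusted p = 0.00683). Tead4 rose by 0.999 (SE 0.32, adjusted p = 0.0201) and Tfap2c by 0.985 (SE 0.17, adjusted p = 0.000423). Ets2 rose by 0.948 (SE 0.25, adjusted p = 0.00745). Some genes that define trophoblast stem cells and placental cell types, picked after their values were seen, were at low levels. Cdx2, a master regulator of trophectoderm, was at 0.452 to 1.19 RPKM in Mtgr1-/- libraries and Elf5, which acts downstream of it, at 0.271 to 0.497 RPKM. Both were lower in FH-Mtgr1 libraries, Cdx2 at 0.203 to 0.403 RPKM and Elf5 at 0.0323 to 0.126 RPKM. Eomes was at 2.04 to 3.35 RPKM in Mtgr1-/- and 2.28 to 2.60 RPKM in FH-Mtgr1 libraries. Of markers of mature placenta, Prl3d1 was listed at 2.21, 0.441 and 0.101 RPKM in Mtgr1-/- A3, C1 and C3 and at 0 in the other 12 libraries, and Prl2c2 and Tpbpa did not exceed 0.141 RPKM in Mtgr1-/- libraries. The part that cells of another type have in the Rhox6 and Rhox9 levels was not tested.

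Markers of embryonic stem cells and feeders differed in the same comparison. The 8 stem cell markers summed to 1773 to 2045 RPKM in Mtgr1-/- libraries, the lowest of all 15, and to 2854 to 3662 RPKM in FH-Mtgr1 libraries. Of the 8, Nanog fell by 0.82 (SE 0.22, adjusted p = 0.00757) and Dppa5a by 1.79 (SE 0.22, adjusted p = 5.03e-05), while Sall4 rose by 0.79 (SE 0.14, adjusted p = 0.000580). Of 4 feeder markers past the filter, the collagen gene Col1a1 rose by 1.72 (SE 0.42, adjusted p = 0.00465), and Thy1 and Pdgfrb fell. The collagen gene Col1a2 was higher by 1.77 (SE 0.37), at means of 1.67 RPKM in Mtgr1-/- and 0.0890 RPKM in FH-Mtgr1 libraries. It passed the filter through libraries where it was high, so this difference is given without a test. All 8 feeder markers summed to 13.8 to 27.9 RPKM in Mtgr1-/- and 22.9 to 30.2 RPKM in FH-Mtgr1 libraries. Their part in the Rhox6 and Rhox9 levels was not tested.

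In Prdm14-/- minus FH-Prdm14, 6 of the 18 placental genes rose and 2 fell, beside 11.4% and 13.8% of all genes, and among those that rose were Peg10 (2.97, SE 0.45, adjusted p = 0.000562), Krt7 (2.61, SE 0.26, adjusted p = 4.66e-05) and Gata3 (1.82, SE 0.35, adjusted p = 0.00263), a transcription factor of trophectoderm. Without Prdm14-/- G6, 3 rose and 2 fell, and without FH-Prdm14 F10, 4 rose and 1 fell. The Prdm14-/- G6 library, in which Rhox6 and Rhox9 were high, also had more Peg10 than Prdm14-/- F10 (290 against 128 RPKM). It had more Hand1 (7.68 against 1.48 RPKM), more Plac1 (1.37 against 0.364 RPKM) and more Dnmt3b (131 against 81.4 RPKM).

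Of 12 tested genes of extraembryonic endoderm, 3 rose and 4 fell in the Mtgr1 lines, a share of 58.3% near the 52.3% of all genes, with Col4a2, a basement membrane collagen, higher by 1.70 (SE 0.19, adjusted p = 2.80e-05) and the endoderm factors Gata4 and Gata6 lower by fitted differences of -1.75 (SE 0.32, adjusted p = 0.000650) and -1.59 (SE 0.34, adjusted p = 0.00213). In the Prdm14 lines 5 rose and 1 fell (50% called, beside 25.2%), led by the endocytic adaptor Dab2 (2.00, SE 0.23, adjusted p = 0.000118), and 3 rose without FH-Prdm14 G6. With clone C3 alone, 3 rose and 1 fell in the Mtgr1 lines. Of 6 genes of Sertoli cells, the testis cells in which Rhox genes respond to androgen, 3 were tested. Wt1 rose by 0.74 (SE 0.21, adjusted p = 0.0110) in the Mtgr1 lines, while Inha and Gata1 fell by 0.66 (SE 0.21, adjusted p = 0.0193) and 0.60 (SE 0.16, adjusted p = 0.00823). With clone C3 alone 1 was called. In the Prdm14 lines limma called 0 of the 3, and 1 had an unadjusted p under 0.05.

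**Figure D5:**
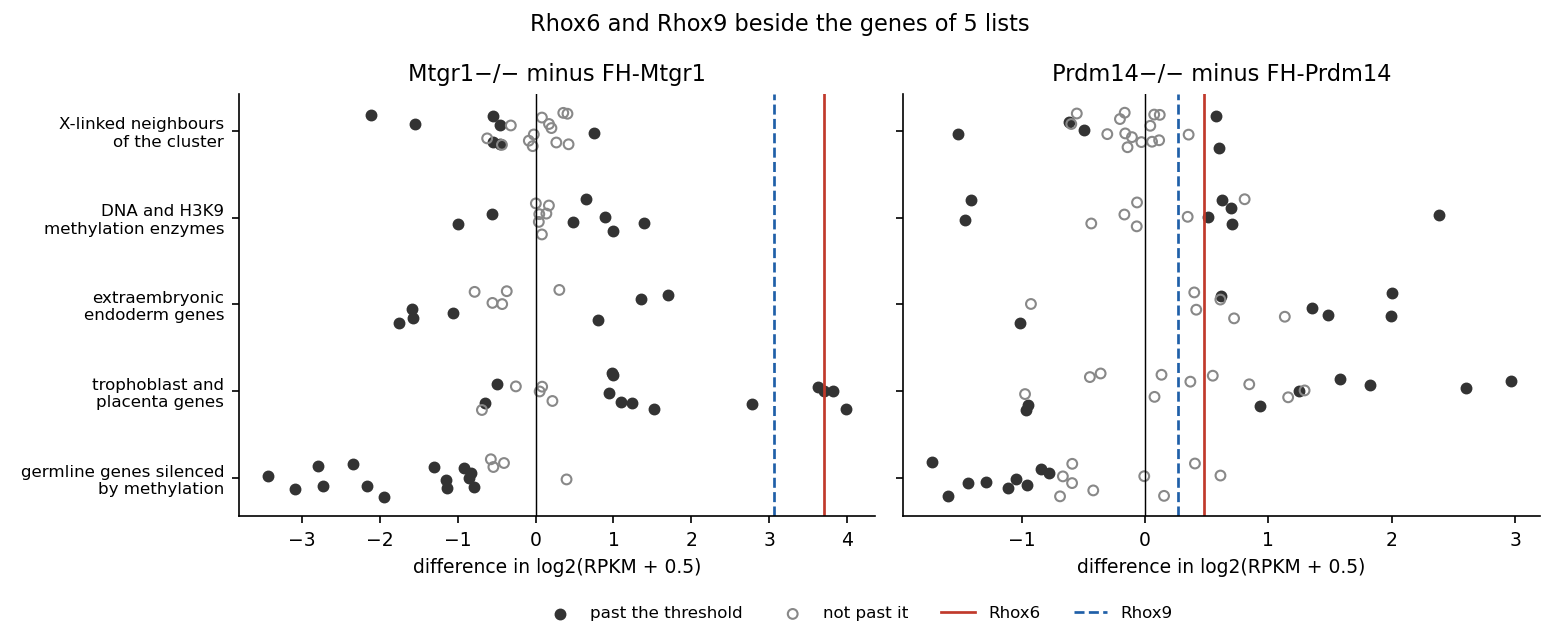
Differences in log2(RPKM + 0.5) of the genes of 5 lists in Mtgr1-/- minus FH-Mtgr1 (left) and Prdm14-/- minus FH-Prdm14 (right), with filled points for genes past the adjusted p threshold of 0.05 and lines for Rhox6 (solid) and Rhox9 (dashed). On the left both genes lie among the highest trophoblast and placenta genes and far from the germline genes, and on the right both lie near 0. Vertical scatter within a list has no meaning.

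The genes most like Rhox6 and Rhox9 over the 15 libraries were ranked by the Pearson r of log2(RPKM + 0.5) among the tested genes outside the family. Nrk, an X-linked kinase that restrains growth of the placenta, came first for both, with an r of 0.961 with Rhox6 and 0.935 with Rhox9. It was at 14.7 to 26.0 RPKM in Mtgr1-/- libraries, at 0.439 RPKM in the wt serum+LIF library and at 6.16 RPKM or less in the other 12. After Nrk came Tnnt3 (0.937), which encodes a troponin of fast muscle, Sct (0.932), which encodes the hormone secretin, Sssca1 (0.926) and 9530082P21Rik (0.916) for Rhox6. Tnnt3 was at 1.26 to 2.72 RPKM in Mtgr1-/- libraries and at 0.973 RPKM or less in the other 12. It passed the filter only through Mtgr1-/- libraries, so its likeness was set in part by the filter. For Rhox9 the genes after Nrk were Batf3 (0.935), a transcription factor of dendritic cells, Setd1a (0.930), an H3K4 methyltransferase, Sct (0.926) and Jmjd6 (0.917), an oxygenase of the nucleus. These r values are the highest of many genes and describe libraries that share groups. Plac1 had an r of 0.845 and Hand1 of 0.885 with Rhox6, and Rhox1 of -0.62.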

How the data were processed

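RNA-seq of 15 libraries was analysed, and the ChIP-seq samples were not used here. The authors purified polyadenylated RNA, aligned single-end reads to mm9 with Tophat and RefSeq models and counted reads per gene with HTSeq, with versions and strandedness not given in the sources used here. The notes of the submitters also name GRCm38. The authors deposited RPKM values and the gene length, the other column of each file, for 24015 genes. RPKM times length, divided by the smallest step, gave whole reads for 100% of values within 0.01.

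Log2(RPKM + 0.5) was fitted with limma 3.58.1 in R 4.3.3, for the 13477 genes that reached an RPKM of 1 in 2 or more libraries, with 1 mean per group over all 15 libraries, a trended eBayes and Benjamini-Hochberg adjustment (threshold 0.05). Poisson and exact binomial intervals are at 95%. Other steps used Python 3.11.15, numpy 2.4.6, pandas 2.3.3 and scipy 1.17.1.

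The genes, lists and tests were chosen with earlier results of these data known. Named were Rhox6 and Rhox9, other Rhox genes that passed the filter or had 10 reads, the targeted genes, the 3 largest calls of a list, and the 5 genes outside the family most like each. Hand1 and the other regulators of the placental list, Tfpi, Syna, Eif2s3y, Dnmt3b by library and the defining trophoblast genes were named after their values were seen. Clones of the labels pair knockout and rescue. Deviations from the group means had an r of 0.299 between Prdm14-/- and FH-Prdm14 libraries of a clone. With the E294K library of the same clone, r was 0.080 for FH-Prdm14 and 0.040 for Prdm14-/-. In Mtgr1 clones A3, C1 and C3 it was 0.063, -0.182 and 0.028, so the clone block is an alternative. For Mtgr1-/- A3 and C1 with the rescue names exchanged, r was 0.066 and 0.105. Groups came from the titles. The knockout and rescue libraries of a group are separate clones, the study's methods call replicates of a line independent, and p-values measure the spread between these libraries only. Coding sequences and positions came from the GENCODE vM1 transcripts of NCBIM37. No promoter or protein sequence of Rhox6 and Rhox9 was used here.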

Additional observations from a re-analysis of the deposited data

How the results depend on the processing

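The differences of Rhox6 and Rhox9 were recomputed with pseudocounts of 0.1 and 1, without the filter, with median-of-ratios scaling, with voom on the recovered reads, with only the compared groups in the fit, with a replicate block by clone and without each library. The sign held in 196 of 202 such values, and 173 moved by less than the spread between libraries. For differences of that size depth set a limit mainly where wt libraries entered, with 7 to 28 reads a gene. FH-Mtgr1 A3 was near them, with 27 reads of Rhox6 and 31 of Rhox9.

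Of the 6 signs that turned, 4 did so without Prdm14-/- replicate 1 (clone G6), which gave -0.19 for Rhox6 and -0.47 for Rhox9 in Prdm14-/- minus FH-Prdm14 and 0.21 and 0.20 in E294K minus Prdm14-/-. The other 2 were of Rhox6 in E294K minus FH-Prdm14, near 0 throughout, at -0.063 without FH-Prdm14 F10 and -0.060 without E294K G6. Leaving out single libraries took Rhox13 from -0.12 (without E294K G6) to 0.48 in E294K minus Prdm14-/-, and Rhox1 from -0.023 (without wt 2i+LIF replicate 1) to 0.95 in wt 2i+LIF minus wt serum+LIF, where the full fit called neither. The cause was not tested for these or for the values that follow.

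Against the wt serum+LIF library a pseudocount of 0.1, which compresses low values less, gave 6.63 for Rhox6 and 5.48 for Rhox9 in Mtgr1-/-, 4.45 for Rhox6 in Prdm14-/- and 3.96 for Rhox6 in FH-Prdm14 cells. Voom gave 6.81 and 5.61 in Mtgr1-/-, 4.59 and 3.84 in Prdm14-/- and 4.11 and 3.59 in FH-Prdm14 cells for Rhox6 and Rhox9, and 2.94 for Rhox6 in FH-Mtgr1 cells. Clone C3 alone, an alternative chosen after seeing the data in which each lone library is assumed to vary like the other groups, gave 2.65 for Rhox6 and 2.07 for Rhox9 in Mtgr1-/- minus FH-Mtgr1, with 4012 genes called in place of 7051 and 0 in place of 2 other Rhox genes. It called 2 in place of 7 neighbours, 3 in place of 7 enzymes, 7 in place of 13 placental, 4 in place of 7 endoderm and 1 in place of 3 Sertoli cell genes.

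Of the 3 other Rhox genes, Mtgr1-/- minus wt serum+LIF called 1, but 2 at a pseudocount of 0.1 or without the filter and 0 at a pseudocount of 1 or with only the compared groups. FH-Mtgr1 minus wt serum+LIF called 1, but 0 without the filter, by voom or with only the compared groups. Rhox7 is not counted in comparisons with FH-Prdm14. Without the filter E294K minus FH-Prdm14 called 1 in place of 0 and Mtgr1-/- minus Prdm14-/- 3 in place of 1. E294K minus Prdm14-/- called 1 in place of 0 with only the compared groups, and wt 2i+LIF minus wt serum+LIF 1 in place of 0 at a pseudocount of 0.1 or with median-of-ratios scaling. In Prdm14-/- minus FH-Prdm14 voom called 1 other Rhox gene in place of 2. There, 3 in place of 5 neighbours were called with only the compared groups or with the replicate block, and 1 Sertoli cell gene in place of 0 without the filter.

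With only the compared groups in the fit, calls over all genes were 625 in place of 3423 in Prdm14-/- minus wt serum+LIF, 7214 in place of 2633 in E294K minus FH-Prdm14 and 5058 in place of 1687 in FH-Prdm14 minus wt serum+LIF. They were 0 in place of 3084 in wt 2i+LIF minus wt serum+LIF and 0 in place of 369 in FH-Mtgr1 minus wt serum+LIF, with 1593 and 3102 genes at an unadjusted p under 0.05 in limma. Voom called 639 in the last comparison.

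The replicate block by parental clone left the differences of Rhox6 and Rhox9 at 3.70 and 3.06 in Mtgr1-/- minus FH-Mtgr1. It ended the call of Rhox1 there (adjusted p = 0.0551) and made one of Rhox13 (adjusted p = 0.0476). It changed no other call of Rhox1, Rhox7 or Rhox13 and no count of a list by over 1.5 times beyond the neighbours above. An exchange of the A3 and C1 rescue libraries in the block was also chosen after seeing the data.

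Leaving out single libraries gave 926 to 3382 called genes in Prdm14-/- minus wt serum+LIF, 1679 to 3099 in Prdm14-/- minus FH-Prdm14, 869 to 1142 in E294K minus FH-Prdm14, 1515 to 3970 in E294K minus Prdm14-/-, 2995 to 5310 in Mtgr1-/- minus Prdm14-/-, 18 to 184 in FH-Mtgr1 minus wt serum+LIF and 399 to 501 in FH-Prdm14 minus wt serum+LIF. Of the other Rhox genes it called 0 to 1 in the comparisons of Mtgr1-/-, FH-Mtgr1 and wt 2i+LIF with wt serum+LIF and of Mtgr1-/- with Prdm14-/-, 1 to 2 in Mtgr1-/- minus FH-Mtgr1, 0 to 1 in Prdm14-/- minus FH-Prdm14, and 0 in FH-Prdm14 minus wt serum+LIF, where limma called 1 with all libraries and 1 had an unadjusted p under 0.05. Rhox6 ranged from 3.11 to 4.44 and Rhox9 from 2.54 to 4.02 in Prdm14-/- minus wt serum+LIF, from -0.19 to 1.15 and -0.47 to 1.01 in Prdm14-/- minus FH-Prdm14, from -1.13 to 0.21 and -1.28 to 0.20 in E294K minus Prdm14-/-, and from 1.48 to 2.81 and 0.94 to 2.42 in Mtgr1-/- minus Prdm14-/-. In wt 2i+LIF minus wt serum+LIF they ranged from 0.16 to 1.28 and from 1.21 to 1.34. The lists in Prdm14-/- minus FH-Prdm14 had 1 to 3 called neighbours, 3 to 8 enzymes, 5 to 9 germline, 5 to 10 placental and 3 to 5 endoderm genes.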
